A study of Mus musculus with 16 samples.

Results

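Cells of the mouse olfactory mucosa that sorted as GFP- were compared between mice given an odorant and mice given vehicle. The comparison used 8 of the 16 arrays of the study, the 4 odorant and the 4 vehicle arrays of GFP- cells, and covered all 22206 gene probesets of the deposited table. The mice were S100a5-tauGFP animals, in which green fluorescent protein (GFP) reports S100a5, a gene of olfactory sensory neurons whose expression depends on their activity. Mice of both sexes, 24 in all and aged 7 to 12 weeks, were kept singly for 40 h in chambers supplied with clean air at 3.1 L/min. From 26 h on, which left 14 h, they received either the odorant or filtered air (vehicle) in pulses of 10 s every 20 min. Its identity is not settled: the sample labels give bourgeonal, whereas indole stands in the study's title. Cells of 3 mice were pooled for each array, which makes 8 pools, and the GFP+ and GFP- arrays of a pool share its mice. Both treatments therefore share the reporter allele, the isolation, the air flow and the sort, and they differ in the content of the air pulses.

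In the olfactory mucosa each mature sensory neuron expresses 1 odorant receptor gene out of a very large family, and the neurons are replaced throughout life by basal stem cells. An odorant activates only the neurons whose receptors bind it. Activated neurons raise S100a5, so the GFP- fraction holds neurons with little recent activity. It also holds all cells that are not mature neurons: immature neurons and their progenitors, sustentacular (supporting) cells, microvillar cells, Bowman gland cells, and blood and immune cells.

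The contents of the GFP- fraction were checked against marker genes. Signals are log2 probeset signals, and a probeset was called above background on an array when it was brighter than 95% of the 23 antigenomic controls, probesets designed against sequences absent from the mouse (mean level 6.66 over the 8 arrays). Omp, the marker of mature olfactory neurons, was at 18.53 to 18.69 on the GFP- arrays and at 18.62 to 18.75 on the GFP+ arrays. S100a5 was at 14.55 to 15.23 on GFP- arrays and at 15.56 to 16.27 on GFP+ arrays, so the fractions did not overlap, yet S100a5 was far above background in GFP- cells. Markers of immature neurons averaged 12.37 to 12.85 on GFP- arrays against 11.28 to 11.57 on GFP+ arrays, and markers of neutrophils 10.86 to 13.24 against 4.94 to 5.82. Mature neuron RNA was thus abundant in both fractions, immature neuron markers were above background in both and higher in GFP- cells, and the mean of neutrophil markers exceeded background on GFP- arrays and on none of the GFP+ arrays.

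The 8 arrays were alike in the share of gene probesets above background and in their correlations. Other array measures varied, with limma array weights from 0.68 (odorant pool 1) to 1.61 (odorant pool 4), and exon and intron controls are given further on. Between 49.9% and 50.9% of gene probesets were above background. Across the 11142 probesets whose mean exceeded the background level, arrays of 1 treatment correlated with r of 0.964 to 0.986 and arrays of different treatments with r of 0.963 to 0.984 (across genes, which are not independent replicates). Over the 10776 probesets above background on every array of at least 1 group, the treatment accounted for 15.6% of the sum of squares. Any split of the 8 arrays into groups of 4 takes up part of this sum, so the share alone does not show an effect. On the first principal component of the same 10776 probesets, which held 29.1% of the variance, odorant pools 2, 4 and 3 scored 33.37, 19.92 and 10.28. Odorant pool 1 scored -20.70 and the vehicle pools scored from -20.64 to -1.24. Odorant pool 1 therefore lay at the vehicle end of this axis, apart from the other odorant pools.

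No gene passed the test. limma called 0 of 22206 gene probesets (0%) at an adjusted p under 0.05, and the smallest adjusted p was 0.708 (smallest unadjusted p 6.16e-05). At an unadjusted p under 0.05, 1520 probesets (6.84%) were counted, 757 higher with odorant (3.41%) and 763 lower (3.44%). All 4 odorant arrays lay above all 4 vehicle arrays for 497 probesets (2.24%) and below them for 427 (1.92%). The median difference over all gene probesets was -0.01. Of the 10776 probesets above background on every array of at least 1 group, 9662 (89.7%) had a 95% interval of the difference that lay within 1 log2 unit of 0 on both sides. The median half-width of that interval was 0.42. Differences below are given as measured, odorant minus vehicle on the log2 scale, for genes that did not pass.

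**Figure D1:**
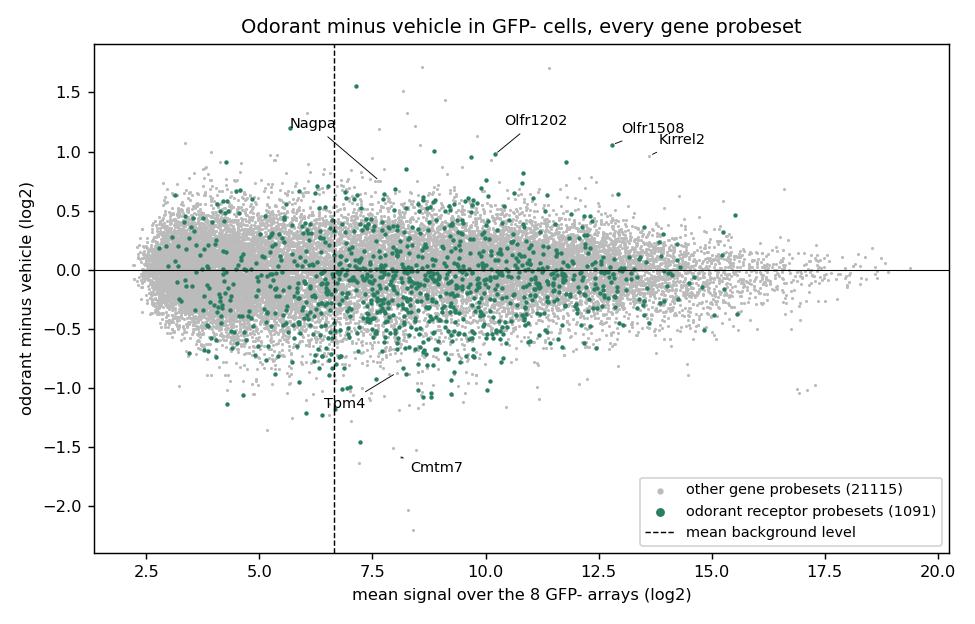
Odorant minus vehicle (log2) against the mean signal over the 8 GFP- arrays (log2) for the 21115 other gene probesets (grey) and the 1091 odorant receptor probesets (green), with the mean background level of 6.66 as a dashed line. Receptors spread to both sides of 0, with 397 above it and 694 below, and Cmtm7 at -1.59 and Olfr1508 at 1.06 are among the labelled genes.

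The 15 named genes that were lower with odorant were picked for the smallest p, which itself favours groups that do not overlap. Of these, 13 had odorant and vehicle arrays that did not overlap, against 1.92% of all gene probesets. Differences of the 15 were between 0.58 and 1.59 in size, and 7 were odorant receptors. Cmtm7, a membrane protein of the CKLF-like MARVEL family, showed the largest difference among them. It was at 7.31, 7.08, 7.60 and 7.40 in odorant pools 1 to 4 and at 8.01, 9.53, 9.03 and 9.18 in the vehicle pools. The odorant pools lay close together, and 3 of the vehicle pools were far above them. The difference was -1.59 (SE 0.29), and without vehicle pool 1, the lowest of its group, it was -1.90 with an adjusted p of 0.0535 in limma, the smallest over the alternatives for this gene, of which the largest was 0.906. On the GFP+ arrays Cmtm7 was at 6.11 to 7.04.

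Tpm4 encodes a tropomyosin, which binds along actin filaments. Its odorant pools were at 7.82, 7.63, 7.16 and 7.79 and its vehicle pools at 8.52, 8.49, 8.41 and 8.47 (difference -0.87, SE 0.17). The vehicle pools lay within a narrow band above every odorant pool. Chp1, a calcium-binding protein that associates with sodium-proton exchangers, was at 12.33, 12.08, 12.07 and 12.08 with odorant and at 12.74, 12.86, 12.67 and 12.69 with vehicle (difference -0.60, SE 0.14). Bola3, which takes part in the assembly of iron-sulfur proteins in mitochondria, was at 11.10, 10.12, 10.82 and 10.68 against 11.38, 11.50, 11.51 and 11.42 (difference -0.78, SE 0.20). Odorant pool 2 was the lowest for Bola3, as it was for the mitochondrial gene groups described further on. Smox (spermine oxidase), C8g (a chain of complement component 8) and the pseudogenes Ppp1r2-ps3 and Hnrnpa1l2-ps2 differed by -0.72, -0.65, -0.74 and -0.69. Their odorant and vehicle pools did not overlap either. A pseudogene can share signal with its parent gene, so the last 2 values are uncertain as to their source.

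All 15 named genes that were higher with odorant, picked in the same way, had pools that did not overlap (against 2.24% of all gene probesets). Their differences were 0.60 to 1.06, and 4 were odorant receptors. Nagpa encodes the enzyme that exposes the mannose 6-phosphate tag of lysosomal enzymes. It was at 7.95, 8.15, 7.93 and 8.11 with odorant and at 7.06, 7.48, 7.40 and 7.20 with vehicle (difference 0.75, SE 0.15). Ap4e1, a subunit of the adaptor complex AP-4 of vesicle traffic, was at 8.53, 8.81, 8.64 and 8.65 against 8.11, 8.04, 7.91 and 7.94 (difference 0.65, SE 0.14). Both genes were dim, and every odorant pool exceeded every vehicle pool. Sirt6, a NAD-dependent deacylase of chromatin, was at 8.09, 8.17, 8.20 and 8.10 against 7.21, 7.63, 7.66 and 7.62 (difference 0.61, SE 0.15). Epha7, a receptor for ephrins on growing axons, was at 12.12, 13.02, 12.34 and 12.33 against 11.89, 11.62, 11.61 and 11.60 (difference 0.77, SE 0.20). Of these genes Epha7 was the brightest, and odorant pool 2 was its highest.

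The others in this group were mostly dim. Lipt1 (a lipoyltransferase) and Polg2 (the accessory subunit of the mitochondrial DNA polymerase) differed by 0.60 and 0.75. Mvp (major vault protein) and Fam78a differed by 0.69 and 0.84, but they were above background on only 3 and 1 of the vehicle arrays, so these sizes are uncertain. Rbp7 (a retinol-binding protein), Spred1 (an inhibitor of Ras signalling) and Zbtb40 (a zinc finger protein) were above background on all 4 odorant arrays and on none of the vehicle arrays. Their differences were at least 1.40-fold, 1.42-fold and 1.40-fold, where the background level stands for any dimmer value.

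**Figure D2:**
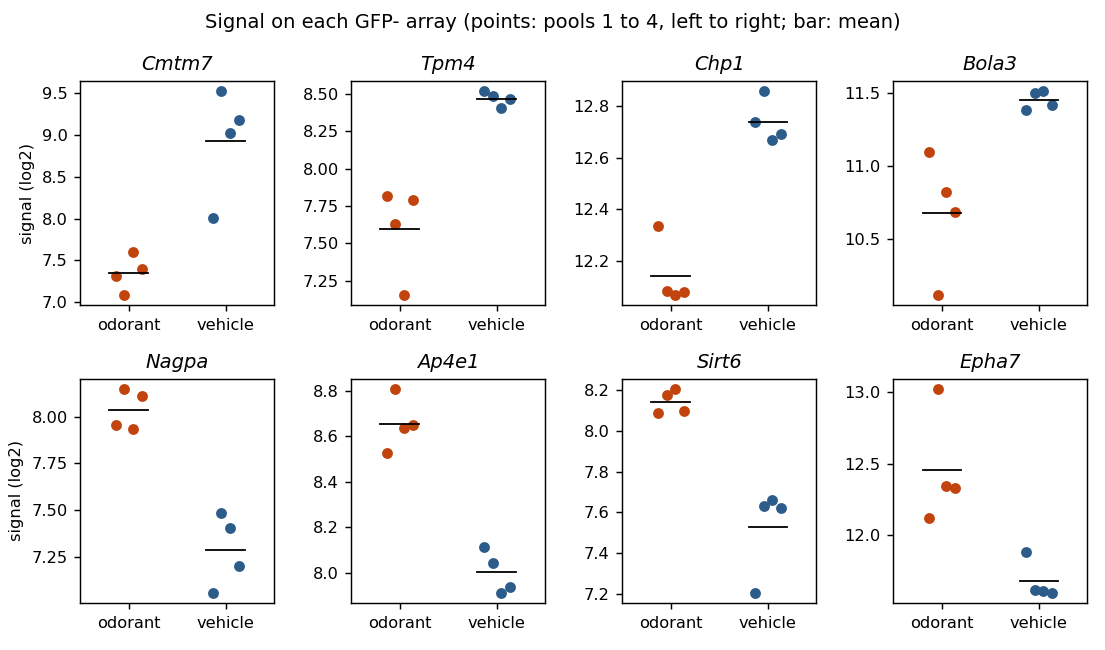
Signal (log2) of 8 named genes on each GFP- array, with odorant pools in orange, vehicle pools in blue, pools 1 to 4 from left to right and a bar at the group mean. Axes do not start at 0. The pools of both treatments do not overlap for any of the 8 genes, the gap for Cmtm7 lying between 7.60 and 8.01.

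Odorant receptors are the genes through which the odorant could act on neurons directly. Of 1091 receptor probesets, 815 had a mean above the background level and 180 were below background on all 8 arrays. None passed the test (0 of 1091). At an unadjusted p under 0.05, 30 were higher with odorant (2.75%, against 3.41% of all gene probesets) and 78 were lower (7.15%, against 3.44%). The groups did not overlap for 12 that were higher (1.1%, against 2.24%) and 24 that were lower (2.2%, against 1.92%). Receptors had a median difference of -0.09, and 694 of 1091 were negative. With 1 pool left out that median ran from -0.18 (without odorant pool 3) to -0.04 (without odorant pool 2). Without odorant pool 3, which had the highest mean receptor signal, 128 were lower. The mean over the 815 receptors was 9.50, 9.42, 9.82 and 9.69 in odorant pools 1 to 4 and 9.68, 9.61, 9.78 and 9.77 in vehicle pools. Odorant pools 1 and 2 were thus the lowest and odorant pool 3 the highest, and the treatments overlapped.

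Among receptors that were higher with odorant, Olfr1202 had the smallest p. It was at 10.21, 11.08, 10.40 and 11.08 with odorant and at 9.81, 9.71, 9.49 and 9.86 with vehicle (difference 0.97, SE 0.22, adjusted p 0.708 in limma). Pools 2 and 4 of the odorant group were the highest, and in GFP+ cells these pools were also the highest of their group, at 11.33 and 10.28 against 9.13 and 8.87. Olfr1508 was at 13.23, 13.46, 12.75 and 13.86 against 12.41, 11.61, 12.68 and 12.36 (difference 1.06, SE 0.27), with a gap of little size between odorant pool 3 and vehicle pool 3. Olfr1260 differed by 0.91 (SE 0.24) and Olfr1275 by 0.82 (SE 0.22). None of the 4 had an adjusted p under 0.708.

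In the RefSeq gene order, receptors next to these were compared, since receptor genes lie in clusters of similar sequence and probes can share signal. Beside Olfr1202, the differences of Olfr1200, Olfr1205, Olfr1204 and Olfr1206 were 0.36, 0.59, 1.00 and 0.63, while that of the next one, Olfr1208, was -0.52, and Olfr1201 was below background in both groups. Olfr1204 was named after its values were seen. It was at 8.81, 9.61, 8.91 and 10.13 with odorant and at 9.21, 8.08, 7.90 and 8.27 with vehicle (SE 0.34), and vehicle pool 1 overlapped the odorant pools. Its GFP+ signal was 10.81, 10.97, 10.08 and 10.59 with odorant and 10.49, 8.72, 8.99 and 9.45 with vehicle, so vehicle pool 1 was the highest of its group in both fractions. Next to Olfr1508, Olfr1509 had means of 7.92 and 6.36 and was above background on 3 odorant and 2 vehicle arrays, and Olfr1507, a brighter receptor at 14.35 and 14.13, differed by 0.22. Next to Olfr1275, Olfr1276 differed by 0.85 and Olfr1274 by -0.73, and the neighbours of Olfr1260 differed by -0.30 to -0.11. Cross-hybridization between neighbours was not tested.

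Among receptors that were lower with odorant, Olfr1056 was at 9.82, 9.79, 9.31 and 9.59 with odorant and at 10.65, 10.51, 10.96 and 10.15 with vehicle (difference -0.94, SE 0.20). Olfr1302 was at 8.77, 8.25, 9.26 and 8.81 against 9.77, 9.63, 9.77 and 9.63 (difference -0.93, SE 0.20). Olfr107 was at 9.61, 10.04, 9.91 and 9.96 against 10.48, 10.43, 10.39 and 10.55 (difference -0.58, SE 0.15). For these 3 receptors every odorant pool lay below every vehicle pool. Olfr348 was above background on all 4 vehicle arrays, at 7.48, 7.00, 6.85 and 7.73, and on none of the odorant arrays, which makes it at least 1.55-fold lower. Olfr807 and Olfr1034 differed by -0.80 and -1.02, with pools that overlapped. Olfr948 was above background on 4 vehicle arrays and 1 odorant array, with means of 7.30 and 6.47. In GFP+ cells Olfr1056 was at 11.97 to 12.74 with odorant and at 11.69 to 12.66 with vehicle.

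In the neighbourhood of Olfr772, which was chosen after its values were seen, Olfr770 and Olfr773 differed by -1.05 and -1.02, while Olfr771, which lies between Olfr770 and Olfr772, differed by less than 0.01. The 15 trace amine receptors, another family of olfactory receptors, gave 0 higher and 0 lower at an unadjusted p under 0.05. Of the 323 vomeronasal receptor probesets 322 were below background on all 8 arrays. Even so, 26 of the 323 were higher (8.05%, against 3.41% of all gene probesets) and 5 lower (1.55%, against 3.44%) at an unadjusted p under 0.05. Their median difference was 0.10. Counts at that level thus also occur among probesets without signal.

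Genes known to follow neuronal activity differed in both directions. Of 10 measured, 2 were higher with odorant at an unadjusted p under 0.05 (against 3.41% of all gene probesets), none passed the test, and 8 of 10 differences were negative. Kirrel2, an adhesion molecule of olfactory axons whose expression follows activity, was at 13.08, 14.92, 13.78 and 14.62 in odorant pools 1 to 4 and at 12.94, 13.58, 12.94 and 13.09 in vehicle pools (difference 0.96, SE 0.35, adjusted p 0.708 in limma). Odorant pools 2, 3 and 4 were above all vehicle pools and odorant pool 1 was among them. In GFP+ cells of the same pools Kirrel2 was at 14.53, 15.95, 14.67 and 15.50 with odorant and at 14.73, 14.94, 14.59 and 14.68 with vehicle, and pools 2 and 4 again stood above the rest. Lrrc3b, a membrane protein with leucine-rich repeats, was at 12.00, 13.50, 12.75 and 13.01 against 11.75, 12.51, 11.69 and 12.36 (difference 0.74, SE 0.31). Odorant pool 2 was the highest for both genes, in GFP- cells and in GFP+ cells alike.

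S100a5 itself was at 15.22, 14.55, 14.77 and 14.87 with odorant and at 15.23, 15.09, 14.94 and 14.90 with vehicle (difference -0.19, SE 0.17). It was lowest in odorant pool 2, where Kirrel2 was highest. As the sort removed the cells with the most reporter, the level of S100a5 in GFP- cells depends on the gate too, and its part in the result was not tested. The difference in S100a5 was within the spread between pools.

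**Figure D3:**
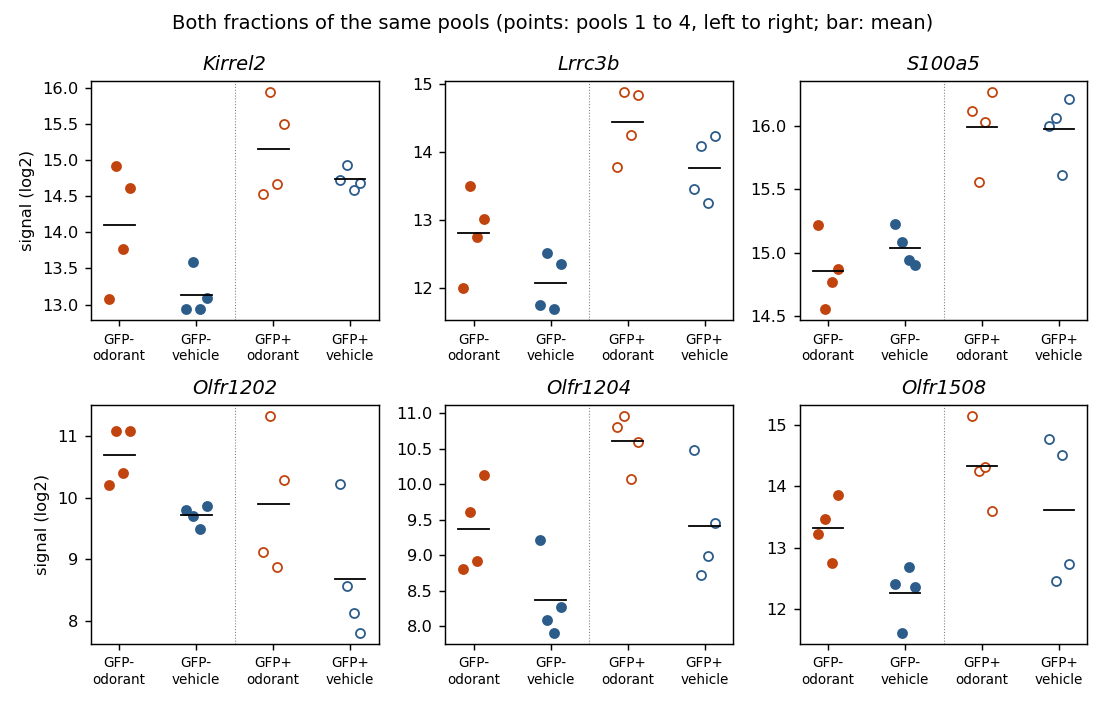
Signal (log2) of 3 activity-dependent genes and 3 odorant receptors in the GFP- (filled) and GFP+ (open) cells of the same pools, odorant in orange and vehicle in blue, pools 1 to 4 from left to right and a bar at the group mean. Axes do not start at 0. Kirrel2 in GFP- cells reached 14.92 and 14.62 in odorant pools 2 and 4 and at most 13.58 with vehicle, and these pools were also the highest in GFP+ cells.

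Immediate early genes, which respond within minutes to activity and also to tissue dissociation, were measured with 32 probesets. Of these 1 was higher at an unadjusted p under 0.05 (against 3.41% of all gene probesets) and none was lower (against 3.44%). There were 14 positive and 18 negative differences. Klf4, a zinc finger transcription factor, was at 8.02, 7.53, 7.83 and 7.35 with odorant and at 7.25, 7.29, 7.16 and 7.27 with vehicle (difference 0.44, SE 0.17), without overlap. Egr2 was at 13.44, 12.36, 13.01 and 13.30 against 12.65, 12.58, 12.54 and 12.64 (difference 0.42, SE 0.22), with odorant pool 2 below the vehicle pools. Atf3, a stress-responsive factor, was at 9.72 to 11.96 with odorant and at 10.74 to 11.46 with vehicle. Both Klf4 and Egr2 were dimmer in GFP+ cells, at 4.79 to 5.29 and 6.33 to 7.27.

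Axon guidance genes, which steer olfactory axons to their glomeruli, had positive differences for 24 of 30 members, against 10846 of all 22206 gene probesets. The median was 0.09 (0.16 without odorant pool 1). At an unadjusted p under 0.05, 3 were higher and 1 was lower, against 3.41% and 3.44% of all gene probesets. Kirrel2 was 1 of the 3 and was also counted among the activity-dependent genes. The mean over the 21 members above background was 11.93, 12.48, 12.14 and 12.15 with odorant and 12.02, 11.94, 11.96 and 11.95 with vehicle. Odorant pool 2 was the highest and odorant pool 1 the lowest of all 8. Plxna3, a receptor subunit for semaphorins, was at 10.51, 11.28, 11.18 and 11.27 with odorant and at 10.75, 10.49, 10.77 and 10.28 with vehicle (difference 0.49, SE 0.21). Apart from odorant pool 1, all odorant pools exceeded all vehicle pools for this gene. Presynaptic genes gave 12 of 19 positive differences, channels of excitability 7 of 13 and genes of cilia 12 of 24.

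Among markers of the neuronal lineage, those of mature neurons averaged 16.67 to 16.86 over the 8 pools, with 9 of 16 differences positive. Gfy, a member of this list, differed by 0.18 (SE 0.14), and Cnga2, a subunit of the transduction channel, by -0.17 (SE 0.14). Markers of immature neurons gave 9 positive and 12 negative differences. Gap43, the growth-associated protein of immature neurons, was at 11.10, 9.51, 10.85 and 10.88 with odorant and at 11.02, 10.76, 10.72 and 11.35 with vehicle (difference -0.38, SE 0.32). Only odorant pool 2 stood apart, below all others. Markers of globose basal cells, the progenitors of the neurons, gave 4 positive and 8 negative differences. Ezh2, a chromatin modifier of these progenitors, differed by -0.28 (SE 0.20) and Sox11 by -0.30 (SE 0.24). The list mean spanned 1.46-fold over the 8 pools. Markers of guanylyl cyclase D and other atypical neurons spanned 2.47-fold (5 of 12 members), with 4 of 12 differences positive. Their mean was highest in odorant pool 1 (10.04) and vehicle pools 2 and 3 (10.24 and 10.17). Car2 of this list was also counted as a red blood cell marker and Ms4a7 as a macrophage marker, so the list does not stand for neurons alone.

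Several lists of non-neuronal cells varied between pools of the same treatment. The tuft-like list spanned only 1.44-fold over the 8 arrays, but it averaged 7 of 14 members, with Gng13 among them, which was as bright in GFP+ cells. The respiratory ciliated list (9 of 14 members) spanned 1.27-fold. It was at 10.25 to 10.60 on GFP- arrays and at 10.56 to 10.91 on GFP+ arrays, so it did not mark these cells here. In each of the groups that follow, fewer cells of a type and less RNA per cell cannot be told apart. Neutrophil markers averaged 12.78, 11.75, 10.95 and 11.26 in odorant pools 1 to 4 and 11.67, 13.01, 13.24 and 10.86 in vehicle pools (15 of 18 members). The pools spanned 5.18-fold, with odorant pool 1 and vehicle pools 2 and 3 high and the others low, so both treatments covered most of the range. Of the 18 members 16 had a negative difference, with a median of -0.60, and 0 were counted in either direction at an unadjusted p under 0.05. That median was -0.21 without vehicle pool 3, -0.23 without odorant pool 3, -0.24 without vehicle pool 2 and -0.86 without vehicle pool 4.

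S100a8, a subunit of the neutrophil protein calprotectin, was at 15.82, 13.42, 13.35 and 13.66 with odorant and at 14.40, 15.72, 15.57 and 13.75 with vehicle (difference -0.80, SE 0.58). Odorant pool 1 matched the highest vehicle pools. Ngp, a neutrophil granule protein, ran from 16.09 to 17.65 with odorant and from 16.18 to 18.05 with vehicle, and Camp, the antimicrobial peptide cathelicidin, from 8.71 to 12.43 and from 9.03 to 12.64. In GFP+ cells these 2 genes were at 6.22 to 9.56 and at 3.45 to 4.09. Of the 10 named genes with the widest spread between pools, Camp, Itgb2l, Mmp9 (a secreted metalloproteinase), Thbs1, Car1, Ctse, Ltf, E2f2 and Obp2a (an odorant-binding protein) had their highest vehicle value in pool 2. Bpifb9b, a secreted protein of nasal glands, had it in pool 3.

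Macrophage and monocyte markers followed the neutrophil pattern, at 10.41, 9.32, 9.12 and 9.11 with odorant and 9.34, 10.41, 10.296 and 9.46 with vehicle (16 of 21 members). Of the 21 differences 17 were negative, with a median of -0.31, or -0.60 without odorant pool 1 and -0.19 without vehicle pool 2. Apoe, the brightest member, was as bright in GFP+ cells (13.50 to 15.74) as in GFP- cells (14.07 to 15.68), so it did not mark these cells here. Lyz2, the lysozyme of myeloid cells, was at 15.35, 13.89, 14.08 and 13.87 against 14.56, 15.36, 15.46 and 14.13 (difference -0.58, SE 0.38). Antigen presentation by MHC class II had another order, with odorant pool 1 at 10.98 and vehicle pool 3 at 10.84 and the other pools at 9.20 to 10.01 (4 of 12 members). Of these 4, H2-DMb1 was as bright in GFP+ cells (10.44 to 11.22) as in GFP- cells (10.36 to 11.50), so it did not mark these cells here. H2-Ab1, a chain of a class II molecule, was at 10.46, 8.54, 9.45 and 9.15 with odorant and at 9.72, 9.77, 10.93 and 9.59 with vehicle. Jchain, the joining chain of antibodies from plasma cells, was at 10.31, 7.48, 9.54 and 8.30 against 8.10, 9.55, 10.35 and 10.51, and at 3.23 to 4.77 in GFP+ cells. T and NK cell markers exceeded background in 2 of 16 members, and endothelial and cartilage and bone markers in 0 of 13 and 0 of 10.

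Red blood cell markers had the largest median difference among the cell type lists, at -1.07, and 10 of 10 members were negative. At an unadjusted p under 0.05, 4 were lower (against 3.44% of all gene probesets), and none passed the test. Of those counted, only Hemgn and Alas2 were above background on every array of at least 1 group. On all 8 arrays, 2 of the 10 members were below background. The list mean was 9.45, 9.93, 8.98 and 8.53 with odorant and 9.19, 11.46, 10.46 and 9.51 with vehicle (7 of 10 members). Vehicle pools 2 and 3 stood above the other 6, whose ranges overlapped. Hemgn, a nuclear protein of erythroid cells, was at 6.41, 7.05, 6.12 and 6.02 against 6.71, 9.07, 7.73 and 7.20 (difference -1.28, SE 0.43), and it was above background on 1 of the 4 odorant arrays, so the size of its difference is uncertain. Alas2, which starts haem synthesis in erythroid cells, was at 7.84, 8.32, 7.06 and 6.81 against 7.98, 9.91, 8.77 and 8.08 (difference -1.18, SE 0.44). Slc4a1, the anion exchanger of the red cell membrane, was at 10.62, 11.65, 10.34 and 9.95 against 10.76, 13.30, 11.96 and 10.92 (difference -1.09, SE 0.53). For Alas2 and Slc4a1 vehicle pool 2 was the highest and odorant pool 4 the lowest. Without vehicle pool 2 the median of the list was -0.47, and without odorant pool 4 it was -0.67. A bright probeset without a gene name, TC1100000336.mm.2, which was chosen after its values were seen, had the same order at its ends, at 16.99, 16.84, 16.32 and 15.47 with odorant and 17.24, 17.95, 17.53 and 17.07 with vehicle, without overlap (difference -1.04, adjusted p 0.708 in limma).

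**Figure D4:**
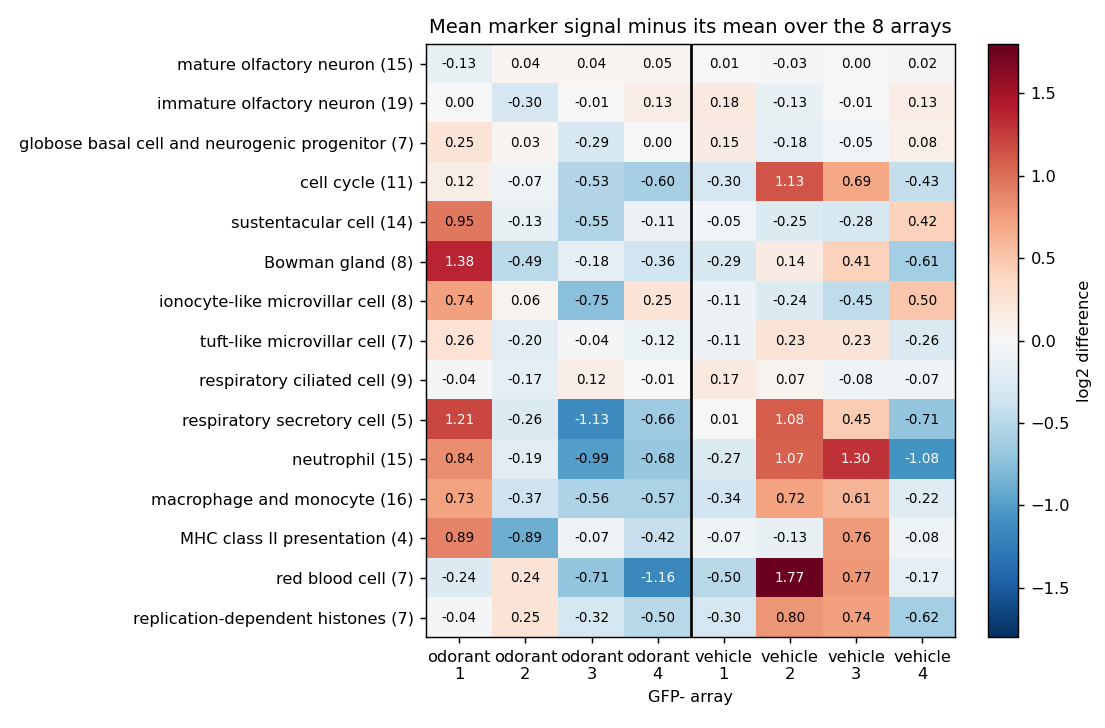
Mean signal of each marker list on each GFP- array minus its mean over the 8 arrays (log2), in colour and as a number, with the number of members averaged in brackets. The lists of mature and immature olfactory neurons span 1.14-fold and 1.39-fold over the 8 arrays and the neutrophil and red blood cell lists 5.18-fold and 7.61-fold, with odorant pool 1 and vehicle pools 2 and 3 high in neutrophil markers.

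Genes of the cell cycle were counted in the same way. Of 19 members 18 had a negative difference, with a median of -0.52, and 3 were lower at an unadjusted p under 0.05 (against 3.44% of all gene probesets). Of those counted, only Hmgb2 and Rrm2 were above background on every array of at least 1 group. The list mean was 9.18, 8.99, 8.54 and 8.46 with odorant and 8.76, 10.19, 9.75 and 8.63 with vehicle (11 of 19 members), with vehicle pools 2 and 3 above the other 6. These were the pools with the most red blood cell and neutrophil signal, and the part of those cells in the result was not tested. Rrm2, a subunit of ribonucleotide reductase, was at 8.41, 8.22, 7.51 and 7.57 against 8.04, 10.45, 9.85 and 8.01 (difference -1.16, SE 0.51). Ccnb2, a cyclin of mitosis, was at 10.05, 8.72, 8.56 and 8.78 against 9.07, 11.38, 10.53 and 9.29 (difference -1.04, SE 0.50). Hmgb2, a chromatin protein of dividing cells, was at 12.19, 10.60, 11.44 and 11.28 against 11.83, 12.39, 12.44 and 11.75 (difference -0.72, SE 0.31). Vehicle pools 2 and 3 were the highest of all 8 for each of these genes. The median was -0.27 without vehicle pool 2 and -0.87 without vehicle pool 4. With odorant pool 1 and vehicle pools 2 and 3 left out together, an alternative chosen after seeing the data, it was 0.01. As vehicle pools 2 and 3 were the highest for this list, that move toward 0 was largely built in and tests no cause. Replication-dependent histones, made in S phase, followed with 10.55, 10.84, 10.26 and 10.09 against 10.29, 11.38, 11.32 and 9.97.

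Many cell cycle promoters carry the cell cycle genes homology region, a hexamer that reads TTTGAA on one strand and TTCAAA on the other and is known to repress these genes in resting cells. Its letters were searched on both strands in the 60 bases before the gene start in RefSeq promoters (GRCm38.p6). They occurred in 5 of the 17 cell cycle genes with an entry (29.4%) and in 3.75% of all 27025 genes. The 2 promoters of members above background that held it are shown 5′ to 3′, since their genes varied together between pools, with the hexamer in capitals.
Ube2c: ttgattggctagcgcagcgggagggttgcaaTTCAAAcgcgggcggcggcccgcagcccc
Hmgb2: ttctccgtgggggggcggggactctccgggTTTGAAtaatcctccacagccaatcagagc
The first lies at chr2:164769869-164769928 and the second at chr8:57511783-57511842, both on the plus strand. Ube2c, a ubiquitin-conjugating enzyme of mitosis, had odorant values of 9.20, 8.77, 7.66 and 7.81 and vehicle values of 8.19, 11.28, 9.92 and 7.93. Vehicle pools 2 and 3 were its highest, as for Hmgb2. A match is a description of letters and not of a bound site.

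Supporting cells and glands differed between pools in yet another order. Sustentacular markers averaged 11.56, 10.48, 10.07 and 10.50 with odorant and 10.57, 10.36, 10.33 and 11.03 with vehicle (14 of 18 members), and ionocyte-like microvillar markers 11.08, 10.41, 9.59 and 10.59 against 10.23, 10.0998, 9.89 and 10.84. Both lists were highest in odorant pool 1 and next in vehicle pool 4, and lowest in odorant pool 3. Hepacam2 was counted in both lists and had this order too, at 12.92, 12.53 and 11.49 in these pools. The median differences of the lists were 0.11 and 0.14, with 11 of 18 and 7 of 10 positive, and without odorant pool 1 the medians turned to -0.21 and -0.09. The ionocyte-like median was also -0.01 without vehicle pool 3. Cyp2a5, an odorant-metabolizing enzyme of sustentacular cells, was at 16.58, 15.24, 14.98 and 14.98 with odorant and at 15.11, 15.29, 15.16 and 15.87 with vehicle. Ascl3, a transcription factor of microvillar cells and gland ducts, was at 9.37, 9.38, 7.95 and 9.96 against 8.76, 8.36, 8.77 and 8.14 (difference 0.66, SE 0.36). Coch, a secreted protein of these microvillar cells, ran from 14.06 to 15.76 and from 14.25 to 15.77. The odorant and vehicle pools overlapped for all 3 genes.

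Bowman glands secrete the mucus of the olfactory mucosa. Their markers averaged 11.18, 9.32, 9.63 and 9.45 with odorant and 9.51, 9.95, 10.22 and 9.19 with vehicle (8 of 15 members), and odorant pool 1 stood above all others. Sox9, a transcription factor of the gland, was at 9.57, 10.41, 10.00 and 10.27 against 9.45, 9.55, 9.71 and 9.59 (difference 0.48, SE 0.19), with odorant pool 1 among the vehicle pools. Bpifb9b had the widest range over pools of the 10 genes named for their spread, at 13.10, 8.29, 11.92 and 8.73 with odorant and 9.75, 10.46, 11.58 and 8.90 with vehicle. In GFP+ cells it was at 12.45, 8.19, 11.99 and 9.52 and at 9.21, 9.71, 10.72 and 8.07. The same odorant pools, 1 and 3, and the same vehicle pool, 3, were the highest in both fractions, at like levels. Ltf, counted here, among neutrophil markers and among secretory markers, was at 10.50 to 13.78 in GFP- cells and at 4.15 to 5.52 in GFP+ cells.

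Tuft-like microvillar cells gave 10 of 14 positive differences with a median of 0.12, which was 0.0011 without vehicle pool 4 and 0.22 without odorant pool 4. Pou2f3, the factor that specifies them, was at 7.91, 8.45, 8.31 and 8.19 with odorant and at 7.62, 7.89, 7.41 and 8.10 with vehicle (difference 0.46, SE 0.19). Gng13, a G protein subunit of these cells, was at 15.50, 14.76, 15.25 and 15.17 against 15.44, 15.71, 15.56 and 15.64 (difference -0.42, SE 0.18). Gng13 was as bright in GFP+ cells, at 14.93 to 15.86, so it did not mark these cells here. Respiratory ciliated markers gave 10 of 14 negative differences and secretory markers 10 of 13. The keratin Krt5, which defines horizontal basal cells and was named after its values were seen, was below background on all 8 arrays.

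Like all 10 red blood cell markers, genes of protein synthesis shared 1 sign. All 57 cytosolic ribosomal protein genes had a negative difference, with a median of -0.39, but none passed the test. At an unadjusted p under 0.05, 1 was lower (1.75%, against 3.44% of all gene probesets). Their mean was 13.75, 12.20, 13.16 and 12.84 in odorant pools 1 to 4 and 13.23, 13.36, 13.40 and 13.56 in vehicle pools. The highest and the 3 lowest pools were all odorant pools. Without odorant pool 2 the median was -0.14, and without odorant pool 1 it was -0.66. On the GFP+ arrays the means were 12.27, 11.86, 12.87 and 13.08 with odorant and 12.63, 12.71, 12.00 and 12.77 with vehicle, with odorant pool 2 again the lowest. Members of this family share array-wide variation, so 57 signs are not 57 observations.

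Rpsa, a protein of the small ribosomal subunit, was at 12.27, 11.28, 11.66 and 11.67 with odorant and at 12.11, 12.31, 12.08 and 12.48 with vehicle (difference -0.53, SE 0.21). Rpl28 of the large subunit was at 15.85, 14.65, 15.29 and 15.47 against 15.995, 15.75, 15.90 and 15.66 (difference -0.51, SE 0.23). Rpl36a, also of the large subunit, was at 11.44, 9.71, 10.91 and 10.54 against 11.10, 11.40, 11.39 and 11.24 (difference -0.64, SE 0.30). Odorant pool 2 was the lowest for all 3 genes. Ribosomal protein genes have many processed pseudogenes that can share probes, so single members are uncertain.

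The genes of this family are known for a run of pyrimidines at the start of the transcript, through which their translation is controlled. A run of 8 or more C or T letters on the coding strand, touching the bases around the RefSeq gene start, was found in 17 of the 45 members with an entry (37.8%) and in 11.4% of all 27025 genes. The promoters of the 3 members with such a run and the lowest differences are shown 5′ to 3′ with the run in capitals, 30 bases before and 20 bases after the start, because the family varied together.
Rps18: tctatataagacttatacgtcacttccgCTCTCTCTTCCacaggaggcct
Rps9: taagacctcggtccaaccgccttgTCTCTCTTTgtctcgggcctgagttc
Rps24: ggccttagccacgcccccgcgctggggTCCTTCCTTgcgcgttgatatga
They lie at chr17:33955646-33955695 on the minus strand, chr7:3704011-3704060 on the plus strand and chr14:24490648-24490697 on the plus strand of GRCm38.p6.

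Genes of oxidative phosphorylation in mitochondria had odorant pool 1 highest and odorant pool 2 lowest, as the ribosomal proteins did. Of 73 members 67 were negative, with a median of -0.24. At an unadjusted p under 0.05, 1 was lower (1.37%, against 3.44% of all gene probesets). The mean over 70 members was 13.09, 12.02, 12.81 and 12.57 with odorant and 12.82, 12.78, 12.76 and 13.07 with vehicle. Without odorant pool 2 the median was -0.06, and without odorant pool 1 it was -0.40. Sdhd, a subunit of complex II, was at 11.89, 11.11, 11.73 and 11.61 against 11.87, 11.90, 11.99 and 12.29 (difference -0.43, SE 0.19). Atp5h, a subunit of ATP synthase, was at 16.07, 14.998, 15.80 and 15.66 against 16.04, 16.16, 15.89 and 16.14 (difference -0.42, SE 0.22). Mitochondrial ribosomal proteins gave 34 of 44 negative differences and proteasome subunits 23 of 30, with medians of -0.12 and -0.09 that came to -0.02 and -0.01 without odorant pool 2.

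An array measure was set beside these families. The median of exon control probesets minus that of intron control probesets was 5.73, 5.32, 5.59 and 5.50 with odorant and 5.54, 5.66, 5.45 and 5.76 with vehicle. It was lowest in odorant pool 2 and high in odorant pool 1 and vehicle pool 4, the pools with the lowest and the 2 highest ribosomal protein means. Vehicle pool 3 went the other way, with the second lowest value of this measure and the third highest ribosomal protein mean. No difference between treatments was detected in it by a 2-sided exact permutation test (difference -0.07, p = 0.571, 0.685 after adjustment over 6 array measures, smallest p possible 0.0286). Its part in the difference of the ribosomal and mitochondrial genes was not tested.

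**Figure D5:**
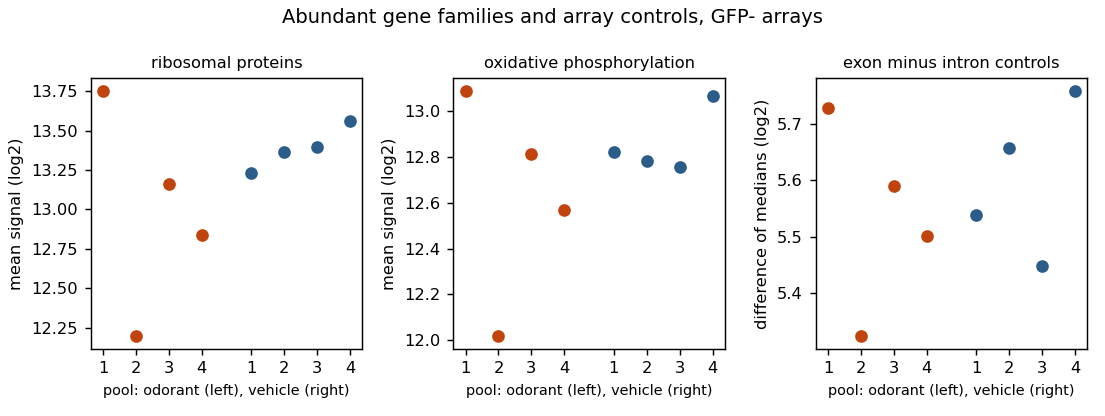
Mean log2 signal of 57 cytosolic ribosomal protein genes and 70 oxidative phosphorylation genes, and the difference between exon and intron control medians (log2), on each GFP- array, odorant pools 1 to 4 in orange and vehicle pools in blue. Axes do not start at 0. Odorant pool 2 is the lowest in all 3 panels and odorant pool 1 lies at or near the top.

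Lists of stress and other programs gave few members at an unadjusted p under 0.05. Of all gene probesets 3.41% were higher and 3.44% lower at that level. Interferon-stimulated genes gave 14 of 25 positive differences with 2 higher at an unadjusted p under 0.05, the unfolded protein response 14 of 21 with 0, heat shock genes 3 of 10 with 0, and genes of the oxidative stress response 5 of 16 with 0 higher and 1 lower. Odorant-metabolizing enzymes gave 15 positive and 16 negative differences, circadian clock genes 14 and 7, apoptosis genes 6 and 10, and genes of hypoxia and glycolysis 7 and 13. Genes of receptor traffic and choice were positive in 14 of 18.

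The sexes of the pools were not the same. Eif2s3y, a gene of the Y chromosome, was at 10.60, 9.97, 10.77 and 2.63 in odorant pools and at 11.17, 10.60, 10.69 and 2.72 in vehicle pools, so the pools numbered 4 of both treatments lacked its signal. Each treatment had 1 such pool, and the treatments were balanced in this respect. Without the pools numbered 4, limma again called 0 genes.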

How the data were processed

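RNA of sorted cells (50 to 100 ng) was hybridised to Clariom S arrays, per the labels' protocols. The deposited table holds log2 probeset signals that the authors made with Affymetrix Expression Console, per the submitters' processing notes. Its version and its methods of background correction and normalization are unknown here. Of 28846 probesets, 6640 were controls and 22206 gene probesets, of which 19572 had 1 gene symbol, 0 several and 2634 none; all 19572 matched RefSeq by gene ID. Values were used as deposited. The array number, not depth, limits precision.

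Odorant and vehicle GFP- arrays (4 and 4) were compared with limma 3.58.1 (R 4.3.3; lmFit and eBayes, 2-sided, no block), and p-values were adjusted by Benjamini and Hochberg's method across the 22206 gene probesets (called under 0.05). The script was tested on simulated data. Array measures were compared by exact permutation over 70 arrangements. Tables and figures were made with Python 3.11.15, pandas 2.3.3, numpy 2.4.6, scipy 1.17.1 and matplotlib 3.10.9.

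Members of the 52 gene lists, and the lists themselves, were chosen with earlier results of these data known; 96 list genes were not on the array by name. Genes were named by rule. The first were the 15 higher and 15 lower of smallest p among those above background on every array of a group (predicted genes passed over). The rule also named the 10 of largest spread between pools, the 5 receptors of smallest p, and S100a5, Omp, Kirrel2, Gap43 and Eif2s3y. In lists picked for description, not in all 52, it named the 3 of smallest p and, for a cell type, the 2 brightest. As the arrays' genome build is unknown here, the only coordinates printed are those of RefSeq sequences, whose promoter shares leave out chromosome 18. Alternatives were array scaling, a filter on dim probesets, the variance model, all 16 arrays, a replicate block, array weights and leaving out pools.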

Additional observations from a re-analysis of the deposited data

Results flagged for a closer look

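Of 322 groups of 4 arrays examined, 30 held an array far from the other 3 by Dixon's criterion, and chance alone marks about 1 in 20 groups. Among odorant pools, pool 1 stood apart most often. It was high for Chp1 (12.33), Ccnb2 (10.05), Ces1d (8.20), Cyp2a5 (16.58), Aqp5 (8.26), S100a8 (15.82), Lyz2 (15.35), the Bowman gland mean (11.18), the macrophage and monocyte mean (10.41), the mean of hypoxia and glycolysis genes (12.75) and the array median (6.76). It was low for Plxna3 (10.51) and for the mature olfactory neuron mean (16.67). Odorant pool 2 was low for Gap43 (9.51) and high for Ncam1 (16.67), an adhesion molecule. Odorant pool 3 was low for Ezh2 (9.26) and for Muc2 (6.89), a mucin, and odorant pool 4 for Stoml3 (19.35) and Eif2s3y (2.63).

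Among vehicle pools, pool 1 was low for Mvp (6.35) and Sirt6 (7.21) and high for Epha7 (11.89) and for the mean of channels of excitability (10.78). Vehicle pool 3 was low for Ezh2 (9.60), as odorant pool 3 was, and high for H2-Ab1 (10.93) and the mean of MHC class II presentation (10.84). Vehicle pool 4 was low for Eif2s3y (2.72), H2-DMb1 (10.73) and the exon control median (10.85), and high for the mean of proteasome subunits (13.00).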

How the results depend on the processing

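Results were recomputed under up to 17 alternatives. Of these 1, chosen after seeing the data, left out odorant pool 1 and vehicle pools 2 and 3, the arrays highest in neutrophil markers. Array measures had 9 alternatives, and Krt5 and the endothelial and the cartilage and bone lists had 16. limma called 0 genes and 0 receptors under each of the 17. Probesets at an unadjusted p under 0.05 numbered 660 without dim probesets, and 1218 to 2152 with 1 array left out. Receptors lower at that level numbered 47 without dim probesets, 134 with the replicate block and 60 (without odorant pool 2) to 128 (without odorant pool 3) with 1 array left out; receptors higher numbered 14 without dim probesets, 18 with all 16 arrays, 51 with the replicate block and 51 without the 3 arrays. Dim probesets were fewer to test by construction; the cause of the other shifts was not tested. Same-numbered pools of both treatments held different mice, and the main fit had no block. Deviations of same-numbered arrays correlated at -0.10, 0.17, 0.05 and 0.30, and those of unlike-numbered arrays at -0.26 to 0.14. The value of 0.30 was that of the pools numbered 4, which both lacked the signal of Eif2s3y (2.63 and 2.72). Whether this or another shared factor had a part in these correlations was not tested. Of 114 named genes, 87 kept their sign throughout, 27 changed it, and 0 passed the threshold; medians of 22 of 52 lists moved by more than the spread between pools. Without the 3 arrays, the sign turned for Itgb2l (0.37), Mmp9 (0.14), Thbs1 (0.34), Car1 (0.12), Ctse (0.30), Ltf (0.73), E2f2 (0.32), Eif2s3y (0.84), Chil3 (0.074), Ngp (0.043), Lcn2 (0.28), Ces1d (-0.15), Cyp2a5 (-0.42), Aqp5 (-0.19), Hepacam2 (-0.40) and Moxd1 (-0.23). As these arrays were chosen on neutrophil markers, the turns of the neutrophil markers Mmp9, Ltf, Ngp and Lcn2 were largely built in. With array weights it turned for Bpifb9b (-0.066), Obp2a (-0.35), Ncam1 (-0.016), Cyp2a5 (-0.013) and Bpifb3 (0.0015). Without both pools numbered 4 it turned for Obp2a (-0.57), Lhx2 (-0.022), Cyp2g1 (0.067), Bpifb3 (0.23) and Coch (0.073), and with array medians subtracted for Omp (0.0077). With 1 array left out, signs turned within -0.52 to 1.08 for Bpifb9b, -1.20 to 0.15 for Itgb2l, -0.73 to 0.57 for Obp2a, -0.80 to 0.31 for Ltf, -2.33 to 1.65 for Eif2s3y, -0.083 to 0.073 for Ncam1, -0.034 to 0.086 for Lhx2, -0.35 to 0.13 for Cyp2g1, -0.29 to 0.26 for Cyp2a5, -0.57 to 0.15 for Galnt13, -0.42 to 0.25 for Bpifb3, -0.10 to 0.38 for Hepacam2, -0.048 to 0.26 for Moxd1, -0.36 to 0.21 for Coch, -0.46 to 0.10 for H2-Aa and -0.25 to 0.13 for H2-DMb1. The same held for the percent of probesets above background (-0.21 to 0.15) and the exon minus intron control difference (-0.13 to 0.0051).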
